A study of Mus musculus with 18 samples.

Results

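Cystine import and glutathione metabolism were followed through 9 genes in RNA from the nucleus and the cytoplasm of BV2, an immortalised line of mouse microglia. The genes were chosen by name for their place in the pathway, and all 9 were found by symbol among the 55487 genes of the count table. Treated cells received 10 µM oxyhemoglobin, the oxygen-carrying blood pigment, for 12 or 24 h, and untreated cells of the same line (0 h) were the comparison. The 18 libraries were 3 for each fraction at each time. The sample titles give no harvest time for the untreated cells, here called 0 h, and name no untreated group at 12 or 24 h. Treatment and time in culture therefore cannot be told apart. The deposited values are 1 mean per combination over its 3 libraries, so no spread between libraries was measured and no test between them was made. All intervals below are 95% counting intervals from the summed reads. They cover counting error only, and the sources do not say whether the 3 libraries came from separate cultures.

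Glutathione is the main small thiol of animal cells. Its scarce building block, cysteine, enters largely as the oxidised dimer cystine. Slc7a11 encodes the cystine/glutamate exchanger xCT, and Slc3a2 its partner chain, which carries several amino acid transporters to the cell surface. Glutamate-cysteine ligase, made of the catalytic subunit Gclc and the modifier Gclm, performs the rate-limiting step of synthesis, and glutathione synthetase (Gss) adds glycine. Glutathione reductase (Gsr) regenerates the reduced form with NADPH. The selenoproteins Gpx1 and Gpx4 spend it on hydrogen peroxide and on lipid peroxides in membranes, and Chac1 cleaves it in the cytosol. In many cell types Slc7a11, Gclc, Gclm and Gsr are known targets of the transcription factor NRF2, and Slc7a11 and Chac1 of ATF4.

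Promoter windows reaching from 250 bases before to 50 bases after the start site were taken from RefSeq (GRCm38.p6) for 7 of the 9 genes, 10 windows in all; Gclc and Gsr had none in the table. The 3 windows that held one of the motifs searched are shown, and they belong to Slc7a11, Gclm and Chac1. Capitals mark matches on either strand to TGACNNNGC, the core of the antioxidant response element bound by NRF2, or to TGATGNAA, the core of the element bound by ATF4 with C/EBP partners. The letters run 5′ to 3′ on the gene's own strand.
Slc7a11 (chr3:50443564-50443863, minus strand): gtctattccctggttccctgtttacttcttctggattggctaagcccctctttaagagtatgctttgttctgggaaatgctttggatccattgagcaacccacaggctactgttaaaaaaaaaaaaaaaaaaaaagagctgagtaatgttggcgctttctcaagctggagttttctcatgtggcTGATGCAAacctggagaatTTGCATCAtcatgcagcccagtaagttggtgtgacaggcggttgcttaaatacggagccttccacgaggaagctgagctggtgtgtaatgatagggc
Gclm (chr3:122245307-122245606, plus strand): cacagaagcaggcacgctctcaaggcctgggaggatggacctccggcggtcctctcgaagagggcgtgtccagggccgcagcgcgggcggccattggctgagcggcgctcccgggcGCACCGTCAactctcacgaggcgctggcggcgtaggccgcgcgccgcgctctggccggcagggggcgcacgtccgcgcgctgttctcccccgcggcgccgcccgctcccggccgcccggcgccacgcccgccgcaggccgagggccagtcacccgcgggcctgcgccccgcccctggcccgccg
Chac1 (chr2:119350992-119351291, plus strand): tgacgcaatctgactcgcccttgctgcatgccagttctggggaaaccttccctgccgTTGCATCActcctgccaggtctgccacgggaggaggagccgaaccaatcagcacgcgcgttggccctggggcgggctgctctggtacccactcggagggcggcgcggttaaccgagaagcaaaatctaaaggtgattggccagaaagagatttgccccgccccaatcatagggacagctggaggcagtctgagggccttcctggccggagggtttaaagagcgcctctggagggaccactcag
The Slc7a11 window held TGATGCAA, 66 to 59 bases before the start, and its reverse complement TTGCATCA, 47 to 40 bases before the start. A match to this motif was found in 3.97% of 32817 windows of the same length, and 2 or more matches in 0.0701%. The Chac1 window held TTGCATCA 193 to 186 bases before the start. The Gclm window held GCACCGTCA, the reverse complement form of the antioxidant core, 134 to 126 bases before the start, as 12.4% of windows held at least 1 match. These matches did not overlap each other. The AP-1 motif TGANTCA (7.81% of windows) was found in no window of these genes. The windows of Slc3a2, Gss, Gpx1 and Gpx4 held none of the 3 motifs. A match is a description of letters and not a measured binding site, and its part in the RNA levels was not tested.

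The counts behind the 9 genes differed in kind as well as in size. Nuclear libraries together gave 14652566 counted reads at 0 h, 15899566 at 12 h and 16031875 at 24 h, and cytoplasmic libraries gave 22379595, 16537318 and 19537309. For protein-coding genes the cytoplasmic level, and in part the nuclear one, followed how much of the exonic sequence belonged to exactly 1 annotated transcript. The median cytoplasmic level in untreated cells was 1.27 counts per 1000000 (CPM) over 1307 genes with under 20% such sequence, and 48.7 CPM over 2282 genes with at least 80%. In the nucleus the median rose from 5.75 CPM under 20% to 39.0 CPM from 60% to 80%, and was 29.2 CPM from 80% upwards. This share was 100% for Chac1, 83.6% for Slc7a11, 83.2% for Gclc, 75.1% for Gsr and 68.4% for Gclm. It was lower for Gss (53.3%), Gpx4 (49.8%), Slc3a2 (45.1%) and Gpx1 (32.1%). In Gss 88.2% of these bases and in Gpx1 79.9% of them lay in transcripts annotated as retaining an intron, while in Gsr 96.1% lay in coding transcripts. Levels of Slc3a2, Gss, Gpx1 and Gpx4 are therefore given as uncertain, and the part of the counting in their ratios was not tested.

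Of 9 markers of microglia and macrophages, 6 to 8 reached a mean count of 10 in the nuclear groups and 3 or 4 in the cytoplasmic groups. Their summed level was 926, 488 and 435 CPM of total counts in nuclear RNA at 0, 12 and 24 h and 103, 46.4 and 45.2 CPM in cytoplasmic RNA. Most of the nuclear sum at 0 h came from Ptprc (598 CPM) and Trem2 (256 CPM), so the sum mainly follows these genes. Itgam did not fall with them in the nucleus, at 7.37, 10.5 and 7.61 CPM. Aif1 stayed at a mean count of 7.67 or less in every group, and the part of these levels in the results below was not tested. The marker lists of neurons, astrocytes, oligodendrocytes, endothelial cells and erythroid cells summed to at most 2.72, 0.936, 13.4, 9.73 and 13.4 CPM in any group. The nuclear noncoding RNAs Malat1, Neat1, Kcnq1ot1 and Meg3 summed to 52202, 57610 and 58664 CPM in nuclear RNA, against 2068, 1998 and 3579 CPM in cytoplasmic RNA at 0, 12 and 24 h.

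Among the transport genes, Slc7a11 was at least 2-fold higher in both fractions and Slc3a2 in the cytoplasm. Slc7a11 had the largest log2 ratio to 0 h of the 9 genes in 3 of the 4 comparisons, and in the cytoplasm at 24 h it stood beside Slc3a2 with overlapping intervals. Slc7a11 (chr3:49892526-50443614, minus strand, GRCm38) had mean counts of 2767, 17103 and 11553 in nuclear RNA at 0, 12 and 24 h, and of 5268, 16041 and 13240 in cytoplasmic RNA. Scaled within each fraction, this was 503 (interval 492 to 514), 3328 (3299 to 3357) and 2362 (2337 to 2387) CPM in the nucleus. In the cytoplasm it was 716 (704 to 727), 3006.5 (2980 to 3033) and 1942 (1923 to 1961) CPM. Both treated times stood well above untreated cells in both fractions, with the 12 h value the highest. The log2 ratio to 0 h was 2.73 (2.69 to 2.76) at 12 h and 2.23 (2.197 to 2.267) at 24 h in the nucleus, or 6.62-fold and 4.70-fold. In the cytoplasm it was 2.07 (2.04 to 2.10) and 1.44 (1.41 to 1.47), or 4.20-fold and 2.71-fold. On log2(TPM + 1) the cytoplasmic value at 24 h was 0.90, under 2-fold. The log2 ratio of 24 h to 12 h was −0.49 (−0.51 to −0.47) in the nucleus and −0.63 (−0.65 to −0.61) in the cytoplasm, both under 2-fold. In bulk RNA, fewer cells with a transcript and less of it per cell cannot be told apart. In the nucleus 99.3% of the 17295 genes compared had a smaller ratio at 12 h, and 96.3% of 11703 in the cytoplasm.

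Slc3a2 (chr19:8706882-8723369, minus strand) behaved differently in the 2 fractions. Its mean counts were 113, 134 and 121 in nuclear RNA and 24.0, 50.7 and 65.7 in cytoplasmic RNA at 0, 12 and 24 h. The cytoplasmic level was 3.26 (2.55 to 4.10), 9.50 (8.05 to 11.1) and 9.63 (8.33 to 11.1) CPM. The cytoplasmic log2 ratio to 0 h was 1.54 (1.13 to 1.97) at 12 h and 1.56 (1.17 to 1.97) at 24 h, higher at both times. On log2(TPM + 1) these were 0.47 and 0.62, under 2-fold. In the nucleus the level was 20.6, 26.0 and 24.7 CPM, and the ratios were 0.34 (0.12 to 0.55) and 0.26 (0.05 to 0.48), under 2-fold. The nuclear value at 24 h turned to −0.04 with total counts and to −0.29 on log2(TPM + 1). The counts are small beside those of Slc7a11, and 45.1% of its exonic sequence was in exactly 1 transcript.

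**Figure D1:**
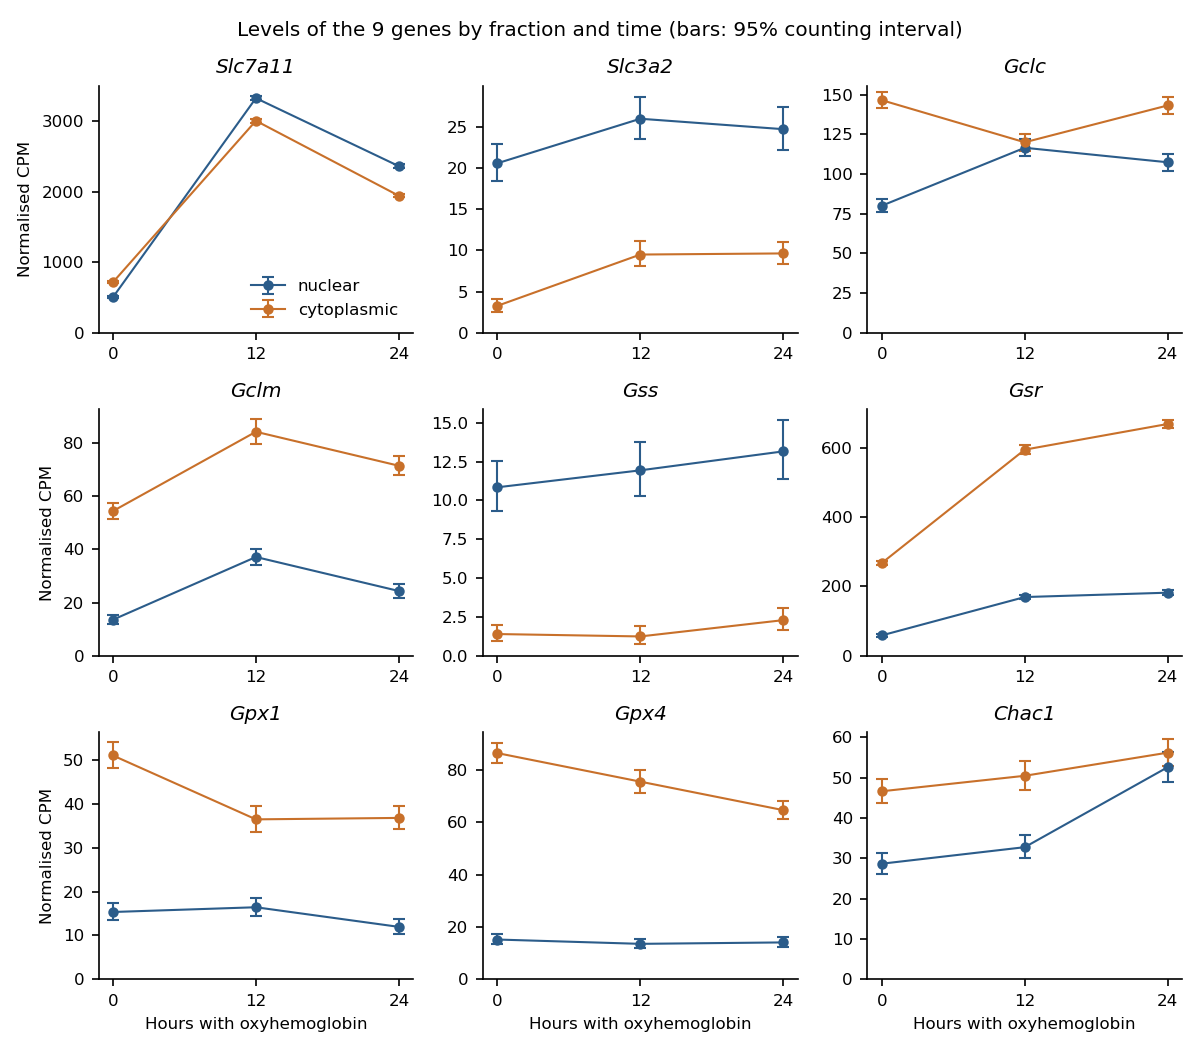
Normalised CPM (vertical axes, starting at 0) of the 9 genes against hours with oxyhemoglobin, with 95% counting intervals as bars. Nuclear (blue) and cytoplasmic (orange) values were scaled separately, so the heights of the lines are not comparable between fractions. Slc7a11 was highest at 12 h in both fractions, Gsr was highest at 24 h in both (in the nucleus at 12 h on deposited TPM), and nuclear Chac1 was higher at 24 h (52.6 CPM) than at 12 h (32.8 CPM).

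At the rate-limiting ligase the subunits differed. Gclm (chr3:122245557-122270732, plus strand), the modifier subunit, had mean counts of 74.7, 191 and 119 in nuclear RNA at 0, 12 and 24 h and of 400, 449 and 486 in cytoplasmic RNA. The nuclear level was 13.6 (11.8 to 15.5), 37.1 (34.1 to 40.3) and 24.3 (21.9 to 27.0) CPM. The log2 ratio to 0 h was 1.45 (1.23 to 1.68) at 12 h, past 2-fold, and 0.84 (0.60 to 1.09) at 24 h, under it. At 12 h it was 0.93 on log2(TPM + 1). In the cytoplasm the level was 84.1 CPM at 12 h and 71.3 CPM at 24 h, against 54.3 CPM at 0 h, with log2 ratios of 0.63 (0.52 to 0.74) and 0.39 (0.28 to 0.50). The cytoplasmic values turned to −0.10 at 12 h and −0.13 at 24 h on log2(TPM + 1), below 0 h.

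Gclc (chr9:77754535-77794485, plus strand), the catalytic subunit, stayed under 2-fold throughout. Its nuclear level was 80.02 (75.8 to 84.5), 117 (111 to 122) and 107 (102 to 113) CPM at 0, 12 and 24 h, and its cytoplasmic level 147 (142 to 152), 120 (115 to 126) and 143 (138 to 149) CPM. At 12 h the nuclear log2 ratio was 0.54 (0.44 to 0.65) and the cytoplasmic one −0.29 (−0.37 to −0.21), so the fractions stood on opposite sides of 0 h. At 24 h they were 0.42 (0.32 to 0.53) and −0.03 (−0.11 to 0.04). On log2(TPM + 1) the cytoplasmic 12 h value was −1.01, and the nuclear 24 h value turned to −0.19.

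Gss (chr2:155563181-155592810, minus strand), which completes glutathione, gave few reads. Its mean counts were 59.7, 61.3 and 64.3 in nuclear RNA at 0, 12 and 24 h and 10.3, 6.67 and 15.7 in cytoplasmic RNA. The nuclear log2 ratios to 0 h were 0.14 (−0.17 to 0.44) at 12 h and 0.28 (−0.02 to 0.58) at 24 h. The cytoplasmic ones were −0.17 (−1.06 to 0.69) and 0.71 (0.03 to 1.41). In the cytoplasm Gss passed the filter on low counts only through its 24 h group, where it was highest. The 24 h ratio there is therefore no support for a rise. The nuclear values turned to −0.11 and −0.22 on log2(TPM + 1). Of its 5915 exonic bases, 913 also belonged to another gene.

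Gsr (chr8:33652523-33698163, plus strand), which returns oxidised glutathione to the reduced form, was past 2-fold in every comparison with 0 h. Its mean counts were 325, 871 and 890 in nuclear RNA at 0, 12 and 24 h and 1969, 3170 and 4556 in cytoplasmic RNA. The nuclear level was 59.0 (55.4 to 62.8), 169 (163 to 176) and 182 (175 to 189) CPM, and the cytoplasmic level 267 (261 to 274), 594 (582 to 606) and 668 (657 to 680) CPM. The nuclear log2 ratio was 1.52 (1.42 to 1.63) at 12 h and 1.63 (1.52 to 1.73) at 24 h. The cytoplasmic one was 1.15 (1.10 to 1.20) and 1.32 (1.28 to 1.37). On log2(TPM + 1) the nuclear 24 h value was 0.99, and the cytoplasmic values were 0.41 and 0.79. The log2 ratio of 24 h to 12 h was 0.10 (0.02 to 0.18) in the nucleus and 0.17 (0.13 to 0.21) in the cytoplasm. The nuclear one turned to −0.20 on log2(TPM + 1).

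Neither peroxidase passed 2-fold at 12 or 24 h against 0 h in the TMM-scaled counts. Gpx1 (chr9:108338903-108340343, plus strand), which reduces hydrogen peroxide, had 51.1 (48.1 to 54.1), 36.5 (33.6 to 39.6) and 36.8 (34.2 to 39.5) CPM in cytoplasmic RNA at 0, 12 and 24 h. Its cytoplasmic log2 ratios were −0.49 (−0.63 to −0.34) and −0.47 (−0.61 to −0.34), below 0 h at both times, and at 12 h the value was −1.18 on log2(TPM + 1), past 2-fold. Its nuclear level was 15.3, 16.4 and 11.9 CPM, with log2 ratios of 0.10 (−0.16 to 0.36) and −0.36 (−0.65 to −0.08). The nuclear value at 12 h turned to −0.12 with total counts and to −0.19 on log2(TPM + 1).

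Gpx4 (chr10:80047166-80056439, plus strand), the peroxidase that acts on membrane lipids and restrains ferroptosis, had 86.5 (82.7 to 90.5), 75.6 (71.4 to 79.98) and 64.7 (61.2 to 68.3) CPM in the cytoplasm. Its cytoplasmic log2 ratios were −0.19 (−0.30 to −0.09) at 12 h and −0.42 (−0.52 to −0.32) at 24 h. In the nucleus they were −0.17 (−0.44 to 0.10) and −0.11 (−0.38 to 0.16). The processed pseudogene Gpx4-ps2, a near copy to which reads may be split, had mean counts of 86.3, 47.7 and 44.3 in cytoplasmic RNA at 0, 12 and 24 h. Gpx4 itself had 637, 403 and 441.

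Chac1 (chr2:119351229-119354381, plus strand), which breaks glutathione down, has 1 annotated transcript and was highest at 24 h in the nucleus. Its nuclear level was 28.7 (26.1 to 31.3), 32.8 (29.96 to 35.7) and 52.6 (49.0 to 56.5) CPM at 0, 12 and 24 h, and its cytoplasmic level 46.6 (43.8 to 49.6), 50.5 (47.1 to 54.1) and 56.2 (53.0 to 59.6) CPM. The nuclear log2 ratio to 0 h was 0.19 (0.01 to 0.38) at 12 h and 0.88 (0.71 to 1.05) at 24 h, under 2-fold, and 24 h against 12 h gave 0.68 (0.52 to 0.85). The cytoplasmic ratios to 0 h were 0.11 (−0.02 to 0.25) and 0.27 (0.15 to 0.39). The cytoplasmic ratios turned to −0.61 and −0.26 on log2(TPM + 1), and the deposited TPM in the cytoplasm were 83.8, 54.4 and 69.8 at 0, 12 and 24 h, highest at 0 h. The nuclear value at 12 h turned to −0.02 with total counts and to −0.11 on log2(TPM + 1).

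**Figure D2:**
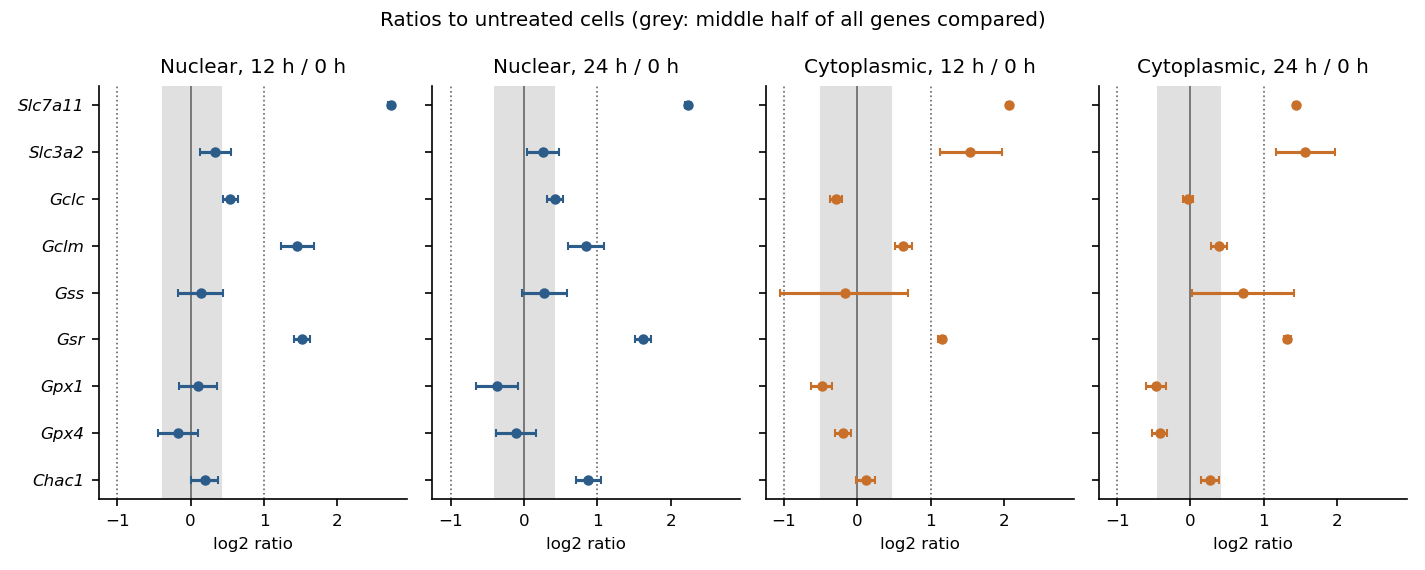
Log2 ratio to untreated cells of the same fraction (horizontal axes) for the 9 genes, with 95% counting intervals. Dotted lines mark 2-fold, and the grey band is the interquartile range of all genes compared. Slc7a11 and Gsr lie beyond 2-fold in all 4 panels, Slc3a2 in the cytoplasmic panels and Gclm in the nuclear 12 h panel.

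Counted as a group, 3 of 9 genes were at least 2-fold higher in the nucleus at 12 h (Slc7a11, Gclm, Gsr), where 7.92% of 17295 genes were, and 2 of 9 at 24 h (Slc7a11, Gsr), where 7.88% were. In the cytoplasm 3 of 9 were higher at 12 h and 3 of 9 at 24 h (Slc7a11, Slc3a2 and Gsr at both), where 11.6% of 11703 and 10.2% of 11700 genes were. None was at least 2-fold lower in these comparisons, against 6.64% and 5.75% of genes in the nucleus and 9.01% and 6.74% in the cytoplasm at 12 and 24 h. All 9 passed the filter on low counts in both fractions. In the cytoplasm Gss passed only through its 24 h group (2.41 CPM of total counts, against 1.39 at 0 h and 1.21 at 12 h). Its ratios are included in the cytoplasmic counts and medians here. The median log2 ratio of the 9 genes was 0.34 and 0.42 in the nucleus, beside 0.00 and −0.02 over all genes. In the cytoplasm it was 0.11 and 0.39, beside −0.04 and −0.06. The comparisons at 12 and 24 h share the untreated group. Between the treated times no member passed 2-fold, where 1.83% of genes were higher and 1.19% lower in the nucleus, and 2.88% and 1.90% in the cytoplasm.

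In the annotation, 11 other genes overlap the span of Slc7a11, Gclm, Gss or Gsr, and 5 of them had no reads in any group. The 3 described first were singled out after their values were seen. Gm37498 (chr3:50400282-50404283), an unclassified transcript inside Slc7a11 on the same strand, shares no exonic base with it and so lies in an intron. It had mean counts of 312, 1663 and 1244 in nuclear RNA at 0, 12 and 24 h and of 12.3, 20.3 and 42.7 in cytoplasmic RNA. Its nuclear log2 ratios to 0 h were 2.51 (2.41 to 2.61) and 2.16 (2.06 to 2.27), beside 2.73 and 2.23 for Slc7a11. Gm24727, a small nucleolar RNA gene in an intron of Gsr (chr8:33691801-33691944), had nuclear log2 ratios of 1.86 (1.63 to 2.10) and 2.05 (1.82 to 2.28), beside 1.52 and 1.63 for Gsr. Gm17494, a noncoding gene on the opposite strand of Gclm, had 2.09 (1.75 to 2.45) and 1.34 (0.96 to 1.72), beside 1.45 and 0.84 for Gclm. All 3 were higher after treatment in the nucleus, each with the same treated time highest as its host. Acss2, the protein-coding neighbour that overlaps Gss on the opposite strand, had 0.27 (−0.02 to 0.56) and 0.68 (0.41 to 0.95). Whether the counting used strand is not given in the sources used here, so reads of Gclm and Gm17494 cannot be told apart where they overlap.

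Location was described by the nuclear-to-cytoplasmic ratio, with all 6 groups scaled together. It compares shares of each fraction's RNA, not amounts per cell. In untreated cells 7 of 9 genes were at least 2-fold lower in nuclear than in cytoplasmic RNA, where 32.7% of 17892 genes were, and 2 of 9 higher, where 47.5% were. Gpx4 had the lowest log2 ratio, −3.74 (−3.93 to −3.55), followed by Gsr at −3.40 (−3.50 to −3.31), Gclm at −3.22 (−3.44 to −3.02) and Gpx1 at −2.96 (−3.16 to −2.76). Gclc was at −2.10 (−2.19 to −2.004), Chac1 at −1.93 (−2.09 to −1.77) and Slc7a11 at −1.73 (−1.77 to −1.69). The intervals of neighbours in this order overlap for Gsr and Gclm, for Gclm and Gpx1, for Gclc and Chac1 and for Chac1 and Slc7a11. Gss (1.73, 1.17 to 2.33) and Slc3a2 (1.44, 1.07 to 1.82) were on the nuclear side. The median over the 9 genes was −2.10, beside 0.78 over all genes and −2.02 over the 2282 protein-coding genes with at least 80% single-transcript sequence.

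The ratio fell across protein-coding genes as the single-transcript share grew. Its median in untreated cells was 1.20 for shares under 20%, 0.78 from 20% to 40%, 0.07 from 40% to 60%, −1.21 from 60% to 80% and −2.02 from 80% upwards. Slc7a11, Gclc and Chac1 lay near the median of their range, while Gclm, Gsr, Gpx1 and Gpx4 lay below theirs and Gss and Slc3a2 above. Scaling by total counts moved the median of all genes by 1.41 on the log2 scale, and then 4 of 9 genes were at least 2-fold lower in the nucleus. Of 17892 genes 13858 were then called, 78.9% of them higher and the rest lower. None of the 9 directions turned at 0 h under the scalings tried or on log2(TPM + 1).

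**Figure D3:**
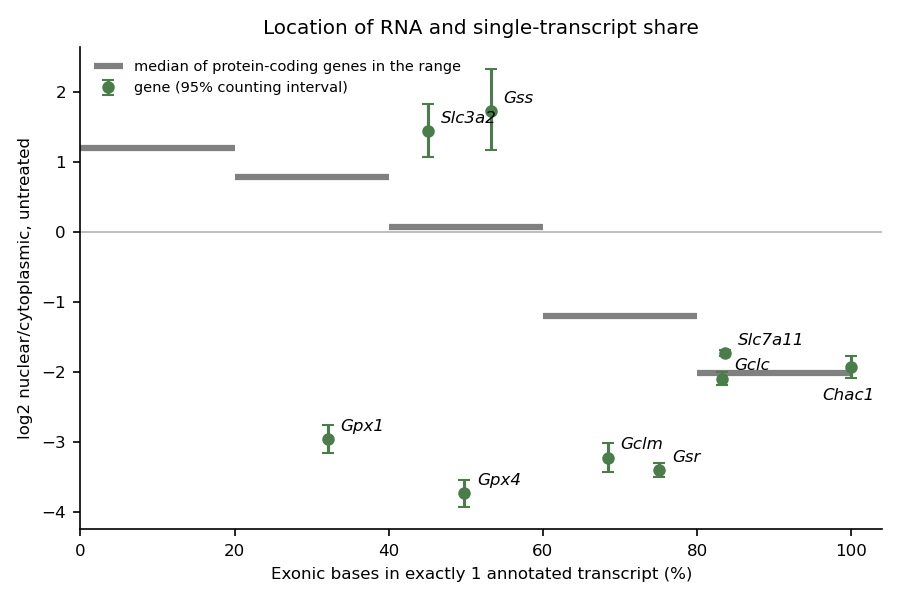
Log2 nuclear-to-cytoplasmic ratio in untreated cells (vertical axis) against the percentage of exonic bases that lie in exactly 1 annotated transcript (horizontal axis), with 95% counting intervals for the 9 genes. Grey lines give the median of protein-coding genes in 5 ranges of that share. They descend to −2.02 in the highest range, where Slc7a11, Gclc and Chac1 sit close to the line.

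After treatment the ratio of 8 of 9 genes at 12 h and of 7 at 24 h lay further towards the nucleus than in untreated cells, each by less than 2-fold, as did that of 61.3% of all genes compared at 12 h and 57.0% at 24 h. The intervals of Gss, Gpx4 and Chac1 at 12 h and of Gpx1 at 24 h include 0. With total counts 6 of 9 genes at 12 h and 4 of 9 at 24 h lay further towards the nucleus, beside 47.3% and 36.1% of all genes. At 12 h 1 of 9 genes was at least 2-fold higher in nuclear RNA (Gss, 2.16, 1.49 to 2.91), where 46.4% of 17901 genes were, and 6 were lower, where 29.3% were. At 24 h 1 was higher (Gss, 1.37), where 45.8% were, and 6 were lower, where 28.9% were. Slc7a11 was at −0.95 (−0.97 to −0.93) at 12 h and −0.87 (−0.89 to −0.85) at 24 h. This direction turned with total counts (0.15 and 0.09) and, at 12 h, on log2(TPM + 1) (0.18). The median of ratios (−1.25 and −1.14) and the upper quartile (−1.80 and −1.61) put it past 2-fold. Slc3a2 was at 0.36 (0.09 to 0.64) and 0.21 (−0.04 to 0.47). Total counts gave 1.46 and 1.17, past 2-fold, the median of ratios 0.06 and −0.06, and the upper quartile −0.49 and −0.53, so the direction depended on the scaling.

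The change of this ratio against 0 h was called for Slc3a2 only, which moved towards the cytoplasm by −1.08 (−1.53 to −0.62) at 12 h and −1.23 (−1.67 to −0.78) at 24 h, lower where 6.16% and 7.49% of 17902 genes were. These were −0.44 and −0.90 on log2(TPM + 1). No member was at least 2-fold higher, where 10.1% and 8.38% were. Among the changes above 0 at 12 h were Gclc at 0.96 (0.83 to 1.09), Gclm at 0.95 (0.70 to 1.20), Slc7a11 at 0.78 (0.74 to 0.83) and Gpx1 at 0.71 (0.42 to 1.00). The median over the 9 was 0.50, beside 0.26 over all genes and 0.48 over protein-coding genes with at least 80% single-transcript sequence. At 24 h it was 0.38, beside 0.17 and 0.54. Slc7a11 was at 0.86 (0.82 to 0.91) and Chac1 at 0.68 (0.47 to 0.88).

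**Figure D4:**
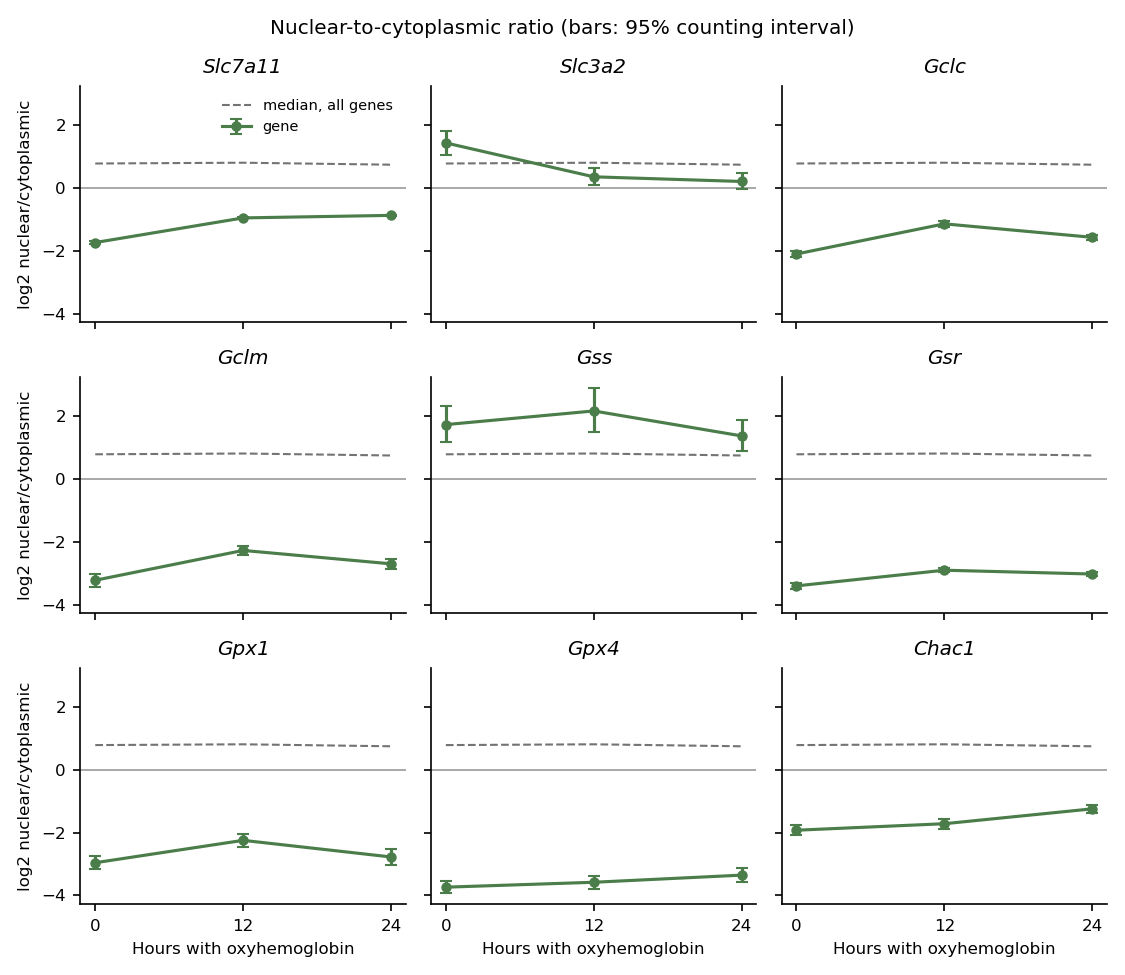
Log2 nuclear-to-cytoplasmic ratio (vertical axes, same range in all panels) of the 9 genes against hours with oxyhemoglobin, with 95% counting intervals. The dashed line is the median of all genes compared. Slc3a2 descends with time to 0.21 at 24 h, Gss stays above 0, and the other 7 stay below it, where with total counts Slc7a11 lies above 0 at 12 and 24 h and with the upper quartile Slc3a2 lies below it.

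Levels of different genes can be set side by side only per length. Per kilobase of exonic sequence, as parts per 1000000 over all genes, Slc7a11 was first in all 3 nuclear groups, with 143, 662 and 439 at 0, 12 and 24 h. In the cytoplasm it had 132, 352 and 261. Gsr had 84.8, 170 and 171 per kilobase in the nucleus and 249.5, 352 and 455 in the cytoplasm, where it was first at 0 and 24 h, and at 12 h the levels of these genes were alike (351.9 for Slc7a11 and 351.6 for Gsr). Gss was last in every group, with at most 7.25. Per single-transcript kilobase, a scale chosen after the data were seen, Gpx1 (192) and Gpx4 (175) came directly after Gsr (225) in untreated cytoplasm, where per exonic kilobase they had 91.1 and 129.

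The wider pathway was covered by 7 lists with 84 genes. In the nucleus 51 passed the filter, and 5 (9.80%) were at least 2-fold higher and 3 (5.88%) lower at 12 h, with 4 (7.84%) higher and 4 (7.84%) lower at 24 h. In the cytoplasm 38 passed, and 7 (18.4%) were higher and 3 (7.89%) lower at 12 h, with 5 (13.2%) higher and 4 (10.5%) lower at 24 h. Of all genes 7.92% were higher and 6.64% lower in the nucleus at 12 h and 7.88% and 5.75% at 24 h, and in the cytoplasm 11.6% and 9.01% at 12 h and 10.2% and 6.74% at 24 h. The nuclear shares of the lists lie near these. The cytoplasmic counts of higher genes include genes of NADPH supply under 5 CPM, which may have passed the filter through treated groups only.

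NADPH supply feeds glutathione reductase. In the nucleus 3 of its 8 genes were higher at 12 h and 2 at 24 h, where 7.92% and 7.88% of all genes were, and none was lower, where 6.64% and 5.75% were. G6pdx encodes glucose-6-phosphate dehydrogenase (single-transcript share 49.97%, uncertain). It had 241 CPM at 12 h and 215 CPM at 24 h in the nucleus, against 56.7 CPM at 0 h (log2 ratios 2.09, 1.98 to 2.19, and 1.92, 1.82 to 2.03). In the cytoplasm it had 667 and 631 CPM, against 289 CPM (1.21 and 1.13). Pgd, the next NADPH-producing enzyme of that route, was at 1.503 and 1.22 in the nucleus. Me1, malic enzyme, was at 1.13 at 12 h (single-transcript share 21.6%, uncertain). In the cytoplasm 3 of 8 were higher at both times (11.6% and 10.2% of all genes) and 2 lower (9.01% and 6.74%). Of those higher, only G6pdx reached 5 CPM in a group compared. The rest may have passed the filter on low counts through treated groups only, so this count is no support for a rise. The lower genes were Pgls (−1.39 and −1.09) and Idh2 (−1.10 and −1.22), with shares of 48.4% and 29.8% (uncertain).

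Among the transferases, which attach glutathione to foreign and endogenous compounds, 8 of 25 passed in the nucleus, with 3 lower and none higher at 12 h (6.64% and 7.92% of all genes) and 2 lower and 1 higher at 24 h (5.75% and 7.88%). Mgst3, a membrane-bound member with a single-transcript share of 100%, had 4.73 and 5.45 CPM in nuclear RNA at 12 and 24 h, against 14.5 CPM at 0 h (log2 ratios −1.62, −2.02 to −1.23, and −1.41, −1.80 to −1.04). In the cytoplasm it was at −1.10 at 24 h, the 1 lower gene of 6 there (6.74% of all genes). At 12 h no transferase passed 2-fold there, where 11.6% of all genes were higher and 9.01% lower. Gsto1 (share 44.5%, uncertain) was at −1.15 in the nucleus at 12 h, and Gstt3 at 1.07 at 24 h.

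Of the cystine, cysteine and partner transport genes, 7 of 13 passed in the nucleus, with 1 higher at 12 h (7.92% of all genes) and 1 higher and 2 lower at 24 h (7.88% and 5.75%). Slc7a8, another partner of Slc3a2, was at 1.15 in the nucleus and 1.15 in the cytoplasm at 12 h. Slc7a5, the large neutral amino acid transporter that also pairs with Slc3a2, was at 1.04 in the nucleus at 24 h. Lower at 24 h were Ctns, the lysosomal cystine exporter (−1.11, share 19.7%, uncertain), and Slc3a1 (−1.01). In the cytoplasm 5 passed, with 1 higher and 1 lower at 12 h (11.6% and 9.01% of all genes). At 24 h none was higher and 1 lower (10.2% and 6.74%).

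Of the other peroxidases and glutaredoxins 6 of 11 passed in the nucleus and none was called. Of all genes 7.92% and 7.88% were higher there at 12 and 24 h, and 6.64% and 5.75% lower. Of 4 in the cytoplasm, where 11.6% and 10.2% of all genes were higher at 12 and 24 h, 2 were higher at 12 h (Glrx5 at 1.46 and Glrx3 at 1.15) and 1 at 24 h (Glrx5 at 1.296). For glutathione transport and glutathione-dependent detoxification, 1 of 8 was higher in the nucleus at 12 h and none at 24 h (7.92% and 7.88% of all genes). In the cytoplasm 1 of 6 was higher at both times (11.6% and 10.2% of all genes). This was Esd, an esterase that releases glutathione from S-formylglutathione, at 1.29 in the nucleus at 12 h and at 2.02 and 1.46 in the cytoplasm. The breakdown and gamma-glutamyl cycle list (8 of 13 compared in the nucleus, 3 in the cytoplasm) and the selenoprotein synthesis list (6 of 6 in both) had no gene called in either fraction at either time. The shares of all genes called in these comparisons are those given above beside the 84 genes.

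Profiles over the 6 group means were compared by the root-mean-square difference of centred log2 CPM, among 6857 genes. The profile most like that of Slc7a11 was Msr1, a scavenger receptor (0.11), followed by Osm, the cytokine oncostatin M (0.20), and Lrrc25 (0.25). For Gsr they were Tubb6, a tubulin (0.13), Ppa1, a pyrophosphatase (0.13), and Gm10053 (0.14). For Chac1 they were Neu3, a sialidase (0.06), Nipal3 (0.11) and Mmab (0.12), and for Gclc Trappc10 (0.04), Kif18b (0.07) and Pusl1 (0.07). For Slc3a2 (uncertain) they were Pi4k2b (0.12), Setd6 (0.15) and the metallothionein Mt1 (0.17). Those of Gclm were Rpp25l (0.13), Eaf1 (0.13) and Twf1 (0.14). The nearest to Gss and Gpx4 (both uncertain) were Cxadr (0.09) and Fundc1 (0.04). No member was among the 3 most like another member. These are descriptions over 6 means that share the same libraries.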

How the data were processed

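RNA of nuclear and cytoplasmic fractions was sequenced after lysis in a hypotonic detergent buffer and pelleting of the nuclei, per the labels' protocols, and libraries were made with a tagmentation kit. The submitters' processing notes name HISAT2 2.2.0, featureCounts, DESeq2 and the build GRCm38. The sources used here give neither the strand setting nor the annotation release. Values in the 6 columns of the deposited count table are in part not whole, but every one times 3 was, within 0.001, so they were read as estimated counts, the mean of 3 libraries. The deposited TPM follow from these and 1 length per gene, which was the sum over the gene's annotated transcripts for 7659 of 7820 genes (97.9%). The number of per-sample columns not used was 0. Identifiers were matched to GENCODE M21 (55227 of 55487, 99.5%).

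Summed reads were scaled by TMM (edgeR 4.0.16, trims of 30% and 5%) within each fraction for times and over all 6 groups for location. Genes entered a comparison when any of its scaled groups was at or above a mean count of 10 at median depth. It was called at 2-fold or more with a 95% counting interval that excluded 0 (exact Clopper-Pearson, or a normal approximation for changes of the location ratio; exact Poisson for levels). A count of 0 was set to a floor of 3 reads. With 1 value per group, edgeR and DESeq2 tests were not run. Other settings tried were total counts, median of ratios (DESeq2 1.42.0), upper quartile, TMM without mitochondrial genes and the top gene, log2(TPM + 1), a 1.5-fold threshold and no filter. R 4.3.3, matplotlib 3.10.9, scipy 1.17.1, pandas 2.3.3, numpy 2.4.6 and Python 3.11.15 were used, and the calls were tested on simulated data.

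All 9 members are reported. Of the wider lists, up to 4 called genes per list and comparison with at least 5 CPM were named, and for profiles the 3 nearest protein-coding genes with a mean of at least 10 CPM. The members, lists and rules were chosen with earlier results of these data known.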

Additional observations from a re-analysis of the deposited data

Results flagged for a closer look

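Gclc was the member whose fractions moved in opposite directions beyond counting error. At 12 h its nuclear log2 ratio to 0 h was 0.54 (0.44 to 0.65) and its cytoplasmic one −0.29 (−0.37 to −0.21), and the change of its nuclear-to-cytoplasmic ratio was 0.96 (0.83 to 1.09). The difference between the fractions was not tested across libraries. The median change over all genes was 0.26 in the same comparison.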

How the results depend on the processing

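Of the 99 log2 ratios of the members (9 genes in 11 comparisons), none that was past 2-fold changed sign under any setting tried. No paired analysis was possible because the columns are means over replicates, and leaving out single replicates could not be run for the same reason. TMM without mitochondrial genes and the top gene, and no filter on low counts, changed none of these calls. On log2(TPM + 1) 15 calls were lost and 6 gained. There the median of all genes moved by −0.47 in the cytoplasm at 12 h and by −0.34 at 24 h, and Gm23935 took 28.3% and 23.9% of cytoplasmic TPM, against 7.77% at 0 h. Counts of members higher on that scale were 1 in the nucleus at 24 h, 1 in the cytoplasm at 12 h with 2 lower, and 0 at 24 h. In these comparisons 2681 of 17295, 2652 of 11703 and 1735 of 11700 genes were called. Of those called 12.8%, 15.4% and 21.4% were higher and the rest lower. For location on it, 2 were higher in the nucleus at 12 h and 0 at 24 h. There 10382 and 9966 of 17901 genes were called, 78.7% and 69.2% of them higher. The change of the location ratio then had 3 higher and 0 lower at 12 h and 0 lower at 24 h. For it 3304 and 2457 of 17902 genes were called, 73.6% and 24.1% of them higher. At 1.5-fold, 4 members were higher in the nucleus at 24 h, where 5476 of 17295 genes were called, 54.2% of them higher. Between 24 and 12 h 1 member was higher and 1 lower in each fraction. There 1832 of 17295 genes were called in the nucleus (55.4% of them higher) and 1593 of 11702 in the cytoplasm (54.1%). The change of the location ratio at 1.5-fold had 4 higher at 12 h and 2 at 24 h. Of 17902 genes 5720 and 5843 were called at these times, 73.8% and 67.4% of them higher. Total counts left 4 members lower in the nucleus than in the cytoplasm at 0 h, and 2 higher at 12 h and at 24 h. With them 13858 of 17892 genes were called at 0 h (78.9% of them higher). At 12 and 24 h 13271 and 13111 of 17901 were called (80.3% and 78.9%). With the upper quartile 1 member was higher at 0 h and 0 at 24 h. There 14205 of 17892 and 13062 of 17901 genes were called, 49.8% and 47.5% of them higher. Ranks by level held for 5 of 9 members on deposited TPM in untreated cytoplasm. Per single-transcript length they held for 2 in the nucleus at 0 h, 5 at 12 h and 4 in the cytoplasm at 12 h. With total counts the all-gene median shifted by −0.22 and −0.30 in the nucleus at 12 and 24 h, where 31.9% and 27.5% of called genes were then higher instead of 54.4% and 57.8%. The gene with most nuclear reads held 18.6%, 16.3% and 22.1% of them at 0, 12 and 24 h. The largest share of nuclear TPM in 1 gene was 51.6%, 42.3% and 49.3%. Depth limits Gss and Slc3a2 most in the cytoplasm, where their summed reads were lowest.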

Other observations

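Over the wider lists, 21 of 52 genes were at least 2-fold higher and 12 lower in nuclear than in cytoplasmic RNA of untreated cells (40.4% and 23.1%), where 47.5% and 32.7% of all genes were. Of the 8 genes of NADPH supply, 2 were at least 2-fold higher in nuclear RNA there and 3 lower. Among those lower were G6pdx (log2 ratio −3.57, −3.67 to −3.47, single-transcript share 49.97%, uncertain) and Pgd (−2.59, −2.63 to −2.54). Me1 was among those higher (3.61, share 21.6%, uncertain). Sephs2, which makes the selenium donor for selenoproteins, was on the cytoplasmic side (−3.66, −3.74 to −3.59). Glrx, a glutaredoxin (4.71, 3.82 to 5.78), and Mgst2 (3.61, 3.34 to 3.89) were on the nuclear side, with single-transcript shares of 76.1% and 79.9%.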
